A study of Mus musculus with 7 samples.

Results

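The ETS, Kruppel-like (KLF) and SP transcription factor genes were examined in the mouse erythroid line G1E with and without the long non-coding RNA gene Lockd. The set comprised every gene named Klf followed by a number, together with 30 listed ETS and SP genes, which gives 47 genes. Of these, 45 were measured by a probeset annotated with exactly 1 symbol, out of 22180 genes so measured on the array. They were 25 of 26 ETS genes, all 17 KLF genes and 3 of 4 SP genes. Fev and Sp2 were not analysed here.

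G1E cells lack functional GATA1, the factor that completes red cell maturation, and grow as immature erythroid precursors. Total RNA of control cells carrying wild-type Lockd was hybridised to 3 Affymetrix Mouse Gene 2.0 ST arrays, and RNA of cells carrying a CRISPR/Cas9 deletion of Lockd to 4. Both groups share the G1E background and its GATA1 defect, and the submitters describe them as clones without saying which array came from which clone. The p-values therefore measure the spread between these samples, part of which may be technical. A deletion removes DNA together with the transcript, so an effect of the RNA and one of the DNA cannot be told apart here.

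ETS factors share a DNA-binding domain, a winged helix, that reads a GGAA core, and the residues outside it decide whether a member activates or represses. KLF and SP factors read CACCC and GC boxes through zinc fingers at their C terminus. In blood, Klf1 is the erythroid activator of globin and membrane genes. Spi1, which encodes PU.1, antagonises GATA1 and drives myeloid fate, while Fli1 and Erg act in megakaryocytes and in stem and progenitor cells. Within each family, members often bind the same sites, so which paralogues a cell holds is a usual starting question.

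The promoter windows of 3 members are shown because they open the results that follow: Klf1 and Elf1 had the highest values of their families, and Erg varied most between arrays. Each window runs from 250 bases before to 50 bases after the most upstream RefSeq start of the assembly GRCm38.p6, 5′ to 3′ on the gene's own strand. Klf1 lies at chr8:84901732-84902031 on the plus strand, Elf1 at chr14:79480944-79481243 on the plus strand and Erg at chr16:95586544-95586843 on the minus strand. Capitals mark letters typical of sites for GATA factors (GATAA), for KLF and SP factors (CACCC) and for ETS factors (CGGAA). Their reverse complements were searched and capitalised too.
Klf1: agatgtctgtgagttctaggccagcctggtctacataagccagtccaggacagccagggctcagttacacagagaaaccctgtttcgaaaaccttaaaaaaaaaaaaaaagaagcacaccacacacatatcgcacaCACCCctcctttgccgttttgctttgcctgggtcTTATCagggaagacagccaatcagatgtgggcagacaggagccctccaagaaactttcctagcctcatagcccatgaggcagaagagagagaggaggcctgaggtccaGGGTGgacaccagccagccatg
Elf1: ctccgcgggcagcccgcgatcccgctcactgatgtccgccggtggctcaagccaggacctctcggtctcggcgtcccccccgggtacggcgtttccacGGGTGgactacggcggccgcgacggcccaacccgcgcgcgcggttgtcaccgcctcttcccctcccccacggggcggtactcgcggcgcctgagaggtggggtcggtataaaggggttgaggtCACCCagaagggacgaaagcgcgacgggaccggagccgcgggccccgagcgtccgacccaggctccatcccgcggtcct
Erg: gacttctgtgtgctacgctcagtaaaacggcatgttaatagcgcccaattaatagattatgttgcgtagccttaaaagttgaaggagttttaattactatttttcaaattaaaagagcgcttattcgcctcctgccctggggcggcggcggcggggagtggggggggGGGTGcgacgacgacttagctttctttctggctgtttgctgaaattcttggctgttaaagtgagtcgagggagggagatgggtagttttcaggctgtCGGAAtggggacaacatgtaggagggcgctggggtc

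The Klf1 window held a GATAA match on the opposite strand, whose first base lay 80 bases before the start, and a CACCC match 114 bases before it. A further CACCC match on the opposite strand began at base 29 after the start. The Elf1 window held 2 CACCC matches and neither of the other motifs. The Erg window held 1 CACCC and 1 CGGAA match. A promoter entry was found for 36 of the 45 measured members. Spi1, Fli1, Ets1 and Ehf were among the members without one. GATAA occurred in 3 of these 36 windows, or 8.33%, against 25.8% of all 27025 promoter windows of the same length. CACCC occurred in 27 of the 36 against 56.8% of all, and CGGAA in 33.3% against 30.3%. The median GC content was 62.3% for the members' windows and 52.7% for all, and its part in these shares was not tested. No matches overlapped in the windows shown, and a match is only a description of the sequence. The 3 windows with GATAA were those of Klf1, Sp1 and Klf12.

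Lockd itself read 7.89, 8.04 and 7.80 on the control arrays and 5.09, 5.15, 4.17 and 5.15 on the deletion arrays, on the log2 scale of the deposited values. All 4 deletion arrays lay below the control arrays. Cdkn1b, its neighbour on chromosome 6, read 9.06 to 9.30 in controls and 7.89 to 8.25 in deletion cells. These were the 2 probesets of 23521 past a limma adjusted p of 0.05, and 0 passed without any 1 control array, without deletion replicate 1 or 4, with the replicate number as a block, or with all probesets of the table tested. The 7 arrays correlated at 0.993 to 0.996, and control replicate 2 lay apart on the first principal component, at 29.3 where the other arrays lay between -12.9 and 2.30.

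The erythroid label was checked against its markers. Each of the 19 measured erythroid marker genes exceeded the median level over all genes, and 9 of them lay in the top 10%, among them Car2, a carbonic anhydrase gene, and Rhag, a Rhesus complex gene. Above that median lay 0 of 11 lymphoid markers, 3 of 12 stromal and endothelial, 3 of 11 mast cell and basophil, 6 of 17 megakaryocyte and 11 of 27 myeloid genes. Cpa3, a mast cell protease gene at 11.15 ± 1.41 (SD, n = 3) in control cells and 10.45 ± 0.73 (SD, n = 4) in deletion cells, was the mast cell marker in the top 10%.

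No ETS, KLF or SP gene passed the test between deletion and control cells. With limma's p adjusted over all 23521 probesets (Benjamini-Hochberg), 0 of 45 members lay under 0.05, where 0.00850% of all tested probesets did. At an unadjusted limma p under 0.05 there was 1 member, Ehf, where 4.64% of all probesets reached that value. The groups did not overlap for the same 1 gene, against 5.15% of all probesets in either direction and 2.50% with deletion arrays lower. Of the 45 differences, 22 were below 0 and 23 above, with a median of 0.00381, beside 10592 of 22180 below 0 and a median of 0.00541 over all genes.

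The data limit the size of a change for most of these genes. The differences (deletion minus control, log2) ran from -0.75 for Erg to 0.20 for Etv1, each of which moved by over 1.5 times with 1 array left out, and 32 of 45 were smaller than 0.1 in size. The 95% interval lay within -0.5 and 0.5 for 40 of the 45, and within -1 and 1, a 2-fold change in either direction, for 44. Erg was the exception to the latter. Of all 22180 genes, 19992 and 22014 had intervals within these limits, and 14894 had a difference smaller than 0.1 in size. At dim probesets background can hide part of a change, so the intervals of the 13 members below the median level do not bound a change in transcript number. By family, 17 of 25 ETS genes lay below 0 with a median of -0.03, 12 of 17 KLF genes above 0 with a median of 0.03, and all 3 SP genes above 0 with a median of 0.09. With each array centred on its own median, 28 of the 45 members lay below 0, so the balance of signs moves with the scaling.

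**Figure D1:**
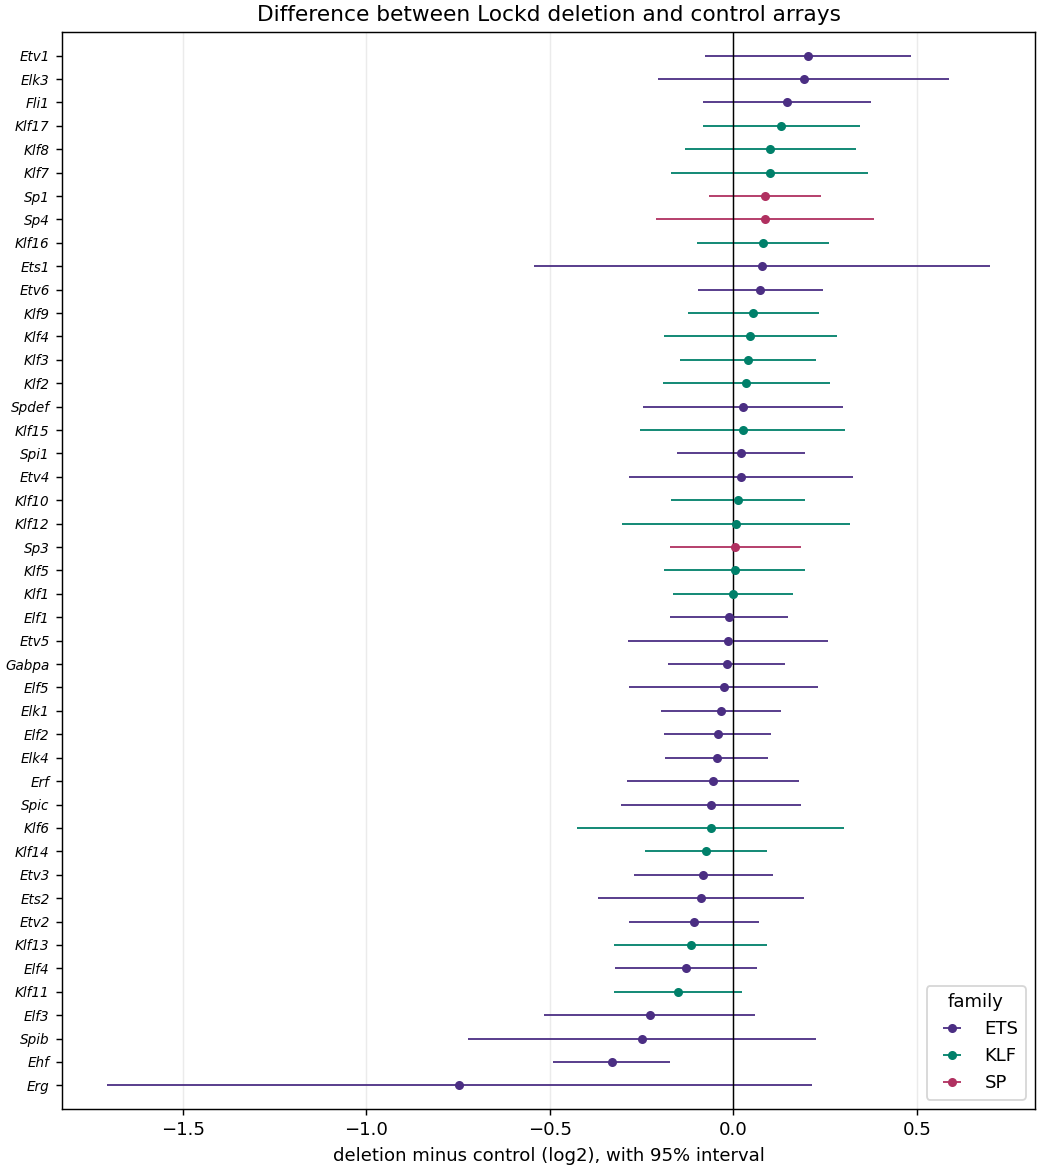
Difference between deletion and control arrays for each of the 45 genes, on the log2 scale along the horizontal axis, with bars for the 95% interval of the limma fit and colours for the family. Most points lie within 0.1 of 0, Erg has the widest interval, from -1.71 to 0.21, and the Ehf interval, from -0.49 to -0.17, excludes 0 without adjustment.

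The order of the paralogues by level was that of probeset values averaged over the 7 arrays. Probesets differ in their probes, so the order is one of brightness and not of transcript numbers. The members spanned 4.21 to 10.89, with 32 of 45 above the median of all genes at 5.72, 13 in the top 25% and 4 in the top 10%. Those 4 were Elf1, Klf1, Klf9 and Gabpa. The 16 highest were the same genes on control arrays alone and on deletion arrays alone. Neighbours in the order were mostly not separable: for 38 of the 44 adjacent pairs the ranges over 7 arrays overlapped, with a median gap of 0.11 beside a median range of 0.38. The ranges did not overlap between Elf1 and Klf1, Klf1 and Klf9, Klf16 and Klf10, Klf10 and Sp1, Etv3 and Erf, or Klf2 and Spdef.

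**Figure D2:**
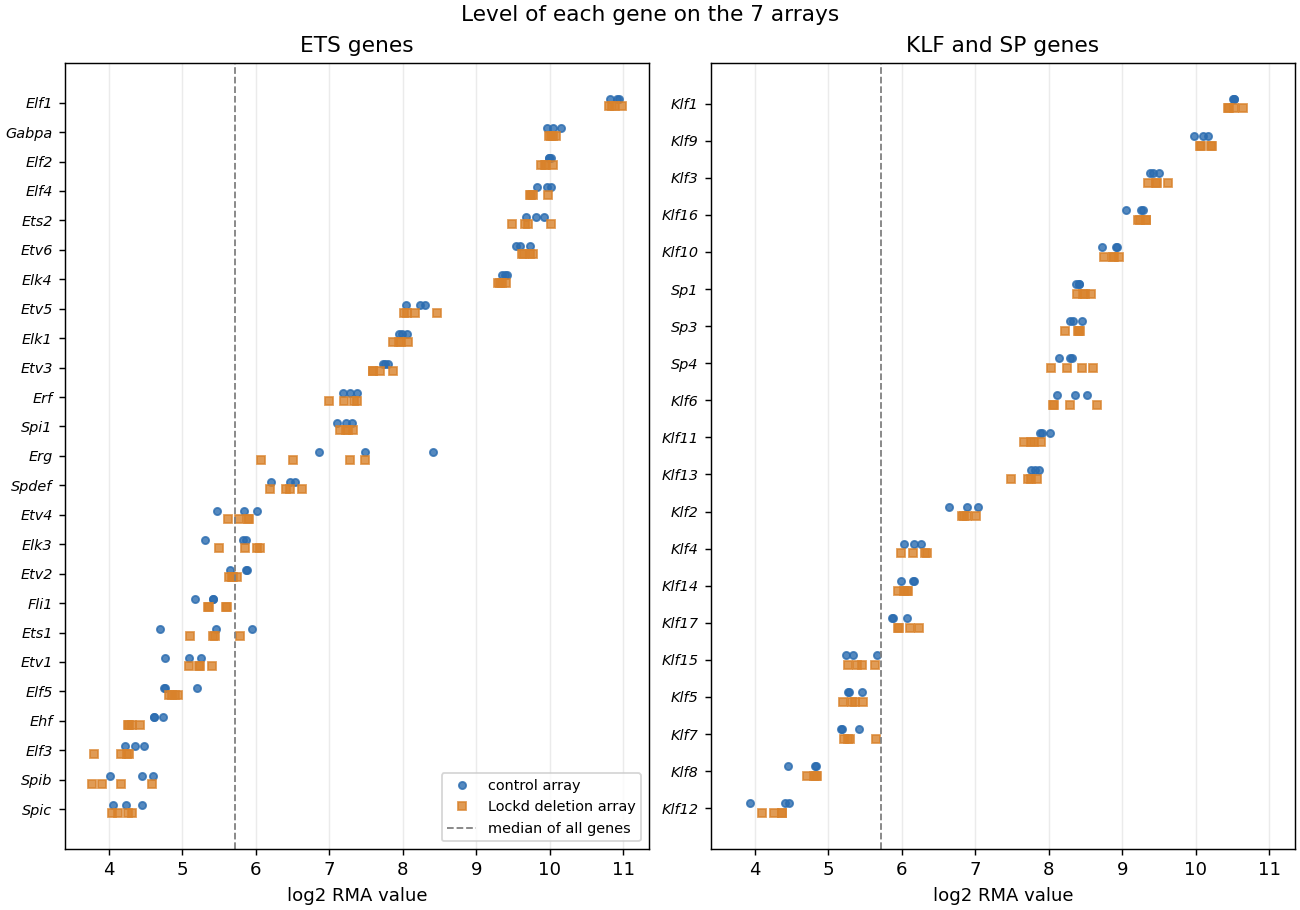
Log2 RMA value of each measured gene on each array, ETS genes on the left and KLF and SP genes on the right, ordered by mean, with circles for the 3 control and squares for the 4 deletion arrays. The dashed line is the median of all genes at 5.72, control and deletion symbols overlap for every gene but Ehf, and the Erg symbols spread most widely.

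The ELF probesets were among the brightest of the ETS genes. Elf1, a factor of blood cell genes, read 10.95, 10.91 and 10.83 on control arrays and 10.81, 10.85, 10.89 and 10.98 on deletion arrays, brighter than 95.7% of all genes. Its arrays overlapped fully and the difference was -0.01 (SE 0.07, 95% interval -0.17 to 0.15). Elf2, a close relative, read 9.99, 9.99 and 10.01 against 10.04, 9.95, 9.94 and 9.88, a difference of -0.04 (SE 0.06). Elf4, known from natural killer and T cells, read 10.02, 9.82 and 9.96 against 9.75, 9.97, 9.74 and 9.77. Its lower deletion arrays were offset by replicate 2, and the difference was -0.13 (SE 0.08) with a limma unadjusted p of 0.166.

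Gabpa, the DNA-binding subunit of GABP that serves mitochondrial and housekeeping genes, read 10.05, 10.15 and 9.96 against 10.05, 10.01, 10.08 and 9.998. Its groups overlapped, with a difference of -0.02 (SE 0.07). Etv6, a repressor needed for blood formation in bone marrow, lies on chromosome 6 like Lockd. It read 9.55, 9.74 and 9.59 in control and 9.63, 9.73, 9.65 and 9.78 in deletion cells, overlapping values that differed by 0.07 (SE 0.07, 95% interval -0.10 to 0.24). Of the other members on that chromosome, Klf14 differed by -0.07 (SE 0.07) and Klf15 by 0.03 (SE 0.12).

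The ternary complex factors join the serum response factor at growth factor-responsive genes. Elk4 read 9.35, 9.39 and 9.42 against 9.32, 9.35, 9.40 and 9.29, the tightest member, with a within-group SD of 0.042. Elk1 had means of 8.002 ± 0.05 (SD, n = 3) in control cells and 7.97 ± 0.09 (SD, n = 4) in deletion cells. Elk3, a repressor until it is phosphorylated, was dim and spread, at 5.83, 5.31 and 5.87 against 6.02, 5.50, 5.85 and 6.07. Control replicate 2 and deletion replicate 2 were low in their groups, and the difference of 0.19 (SE 0.17) was 0.01 without control replicate 2. The repressors Erf and Etv3 differed by -0.06 (SE 0.10) and -0.08 (SE 0.08).

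Of the PEA3 group, which responds to fibroblast growth factor signalling, Etv5 was brightest. It read 8.04, 8.30 and 8.24 against 8.02, 8.47, 8.07 and 8.17, overlapping values with a difference of -0.02 (SE 0.12). Etv4 and Etv1 were near or below the median of all genes, at means of 5.79 and 5.16, with differences of 0.02 (SE 0.13) and 0.20 (SE 0.12). The Etv1 difference was 0.07 without control replicate 2 and 0.31 without control replicate 1. Second probesets for Etv5 and Etv1, dimmer than these, differed by -0.04 and 0.05. Etv2, which specifies endothelial and blood progenitors in the embryo, differed by -0.11 (SE 0.08).

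Spi1 was of middling level and steady. It read 7.31, 7.11 and 7.23 in control and 7.14, 7.32, 7.22 and 7.25 in deletion cells, above 65.9% of all genes. The groups overlapped and the difference was 0.02 (SE 0.08, 95% interval -0.15 to 0.20). Its relatives Spib, a lymphoid factor, and Spic, a factor of iron-recycling macrophages, were the 2 dimmest members, at means of 4.22 and 4.21. Spib read 4.01, 4.45 and 4.61 against 4.16, 4.59, 3.77 and 3.91, with a difference of -0.25 (SE 0.21). The groups overlapped, and it was -0.42 without control replicate 1 and -0.12 without control replicate 3.

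Of the PU.1 target and myeloid genes, 27 of 28 listed were measured and 0 passed in limma over all probesets. An unadjusted p under 0.05 was reached by 3, with 2 higher and 1 lower in deletion cells, where 4.64% of all probesets reached it, and the list's median difference was -0.03. Csf2ra, a cytokine receptor subunit gene, had means of 7.69 ± 0.03 (SD, n = 3) in control cells and 7.49 ± 0.08 (SD, n = 4) in deletion cells. Emb, a surface glycoprotein gene, averaged 6.04 ± 0.10 (SD, n = 3) and 6.28 ± 0.09 (SD, n = 4). Btk, a kinase gene of B and myeloid cells, had the highest value of the list, 10.04 in control and 10.15 in deletion cells.

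Erg was the member with the widest spread. This factor of haematopoietic stem cells read 8.41, 6.87 and 7.48 on control arrays and 7.28, 7.49, 6.08 and 6.50 on deletion arrays. Control replicate 1 stood high and deletion replicates 3 and 4 low, while control replicate 2 lay below deletion replicates 1 and 2, so the groups overlapped. The means were 7.58 ± 0.78 (SD, n = 3) and 6.84 ± 0.66 (SD, n = 4), and the difference of -0.75 (SE 0.42) had a limma unadjusted p of 0.112 and an adjusted p of 0.999. It was -0.34 without control replicate 1 and -1.11 without control replicate 2, neither past the threshold. The within-group SD of 0.71 was above that of 99.7% of all genes.

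Ets2, the coding gene next to Erg on chromosome 16, was brighter and tighter. It read 9.93, 9.82 and 9.68 against 9.67, 10.01, 9.49 and 9.71, with a difference of -0.09 (SE 0.12). Among the deletion arrays, replicate 3 was the lowest for Ets2 as for Erg, and replicate 2 the highest. Control replicate 1 was the highest control array for both. The lowest control array was replicate 2 for Erg and replicate 3 for Ets2, and deletion replicates 1 and 4 stood in opposite order.

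Fli1 and Ets1 are likewise adjacent, on chromosome 9, and lay side by side in the order at means of 5.42 and 5.41, just below the median of all genes. Fli1 read 5.41, 5.18 and 5.42 against 5.62, 5.35, 5.37 and 5.59, with a difference of 0.14 (SE 0.10, 95% interval -0.08 to 0.37) that was 0.06 without control replicate 2. Ets1, a factor of lymphoid and endothelial cells, read 5.45, 4.70 and 5.95 against 5.43, 5.79, 5.45 and 5.11. Control replicates 2 and 3 were the lowest and the highest of its 7 arrays. The difference of 0.08 (SE 0.27) was -0.25 without control replicate 2 and 0.37 without control replicate 3, and the within-group SD of 0.45 was above that of 99.0% of all genes.

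FLI1 target and megakaryocyte genes did not pass either. In limma 0 of 17 measured genes, of 20 listed, passed over all probesets and 2 had an unadjusted p under 0.05, beside 4.64% of all probesets. Gp9, a platelet glycoprotein gene and the brightest of the list, had means of 8.11 ± 0.10 (SD, n = 3) in control cells and 7.78 ± 0.18 (SD, n = 4) in deletion cells. Treml1, a platelet receptor gene, averaged 5.97 ± 0.25 (SD, n = 3) and 6.24 ± 0.09 (SD, n = 4). The list's median difference was -0.02, beside 0.00541 for all genes.

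The epithelial ETS genes Ehf, Elf3 and Elf5 were dim. Ehf read 4.74, 4.61 and 4.62 on control arrays and 4.27, 4.28, 4.32 and 4.42 on deletion arrays. All 4 deletion arrays lay below the 3 control arrays. The difference was -0.33 (SE 0.07, 95% interval -0.49 to -0.17) with a limma unadjusted p of 0.00124 and an adjusted p of 0.969. With any 1 array left out it stayed between -0.36 and -0.29. Its mean of 4.47 was above only 24.0% of all genes, and the values have no detection call, so whether the probeset lies above background was not measured.

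Elf5, the coding gene next to Ehf on chromosome 2, read 4.75, 5.20 and 4.77 against 4.82, 4.86, 4.91 and 4.95. Its difference was -0.03 (SE 0.11), with control replicate 2 alone above the deletion arrays, and 0.12 without that array. Elf3 differed by -0.23 (SE 0.13) and overlapped between the groups, since control replicate 2 lay at 4.22 and deletion replicate 1 at 4.28, and its difference was -0.12 without deletion replicate 2. Spdef, a factor of secretory epithelium, differed by 0.03 (SE 0.12).

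**Figure D3:**
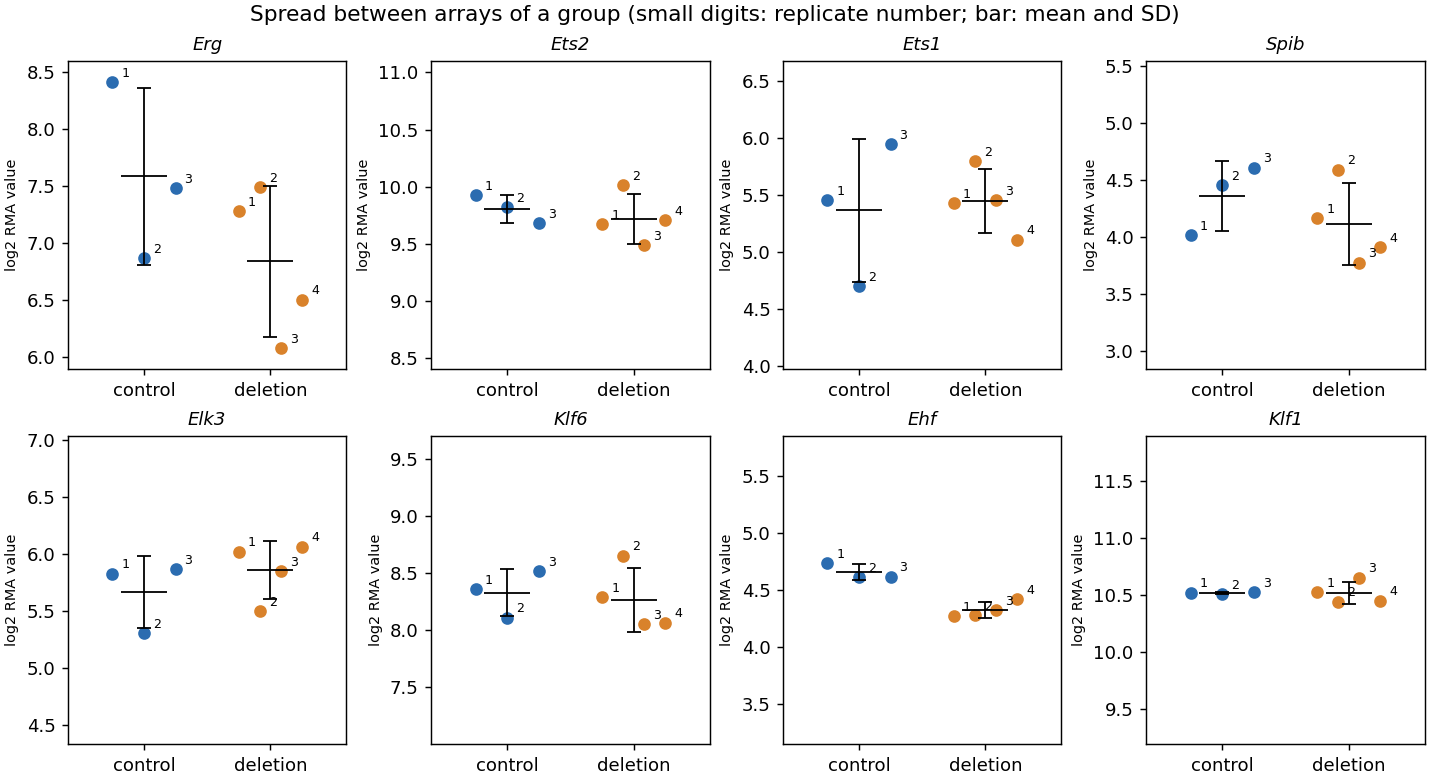
Log2 RMA value on each array for 8 genes, with control arrays on the left and deletion arrays on the right of each panel, replicate numbers beside the points, and the mean with SD as bars. Erg ranges over 2.33 and Ets1 over 1.25, Klf1 over 0.21, and Ehf is the gene whose groups do not overlap.

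Klf1 was the brightest KLF gene and did not differ beyond its spread. It read 10.52, 10.50 and 10.52 on control arrays and 10.52, 10.44, 10.65 and 10.45 on deletion arrays, above 93.5% of all genes. The control arrays lay inside the range of the deletion arrays. The difference of -0.00103 (SE 0.07) had a 95% interval of -0.17 to 0.16. Klf2, which lies on chromosome 8 as Klf1 does and acts in endothelium, T cells and embryonic globin expression, read 7.03, 6.65 and 6.89 against 7.01, 6.89, 6.82 and 6.85, a difference of 0.04 (SE 0.10).

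The list of KLF1 target genes held 26 measured genes of 32, each of them brighter than the median gene. In limma 1 of the 26 passed, Cdkn1b, the neighbour of Lockd, and 5 had an unadjusted p under 0.05, of which 4 were lower and 1 higher, where 4.64% of all probesets had one. Add2, a membrane skeleton gene, had means of 11.11 ± 0.19 (SD, n = 3) in control cells and 10.67 ± 0.19 (SD, n = 4) in deletion cells, with a limma adjusted p of 0.999. Ermap, an erythroid membrane protein gene and the brightest of the list, averaged 12.20 and 12.26. The list's median difference was -0.04, with 18 of 26 below 0, beside 10592 of 22180 genes. This list shares genes with the erythroid markers, Ermap among them.

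The other activator-type KLF genes were dimmer. Klf6, which is induced by growth signals, read 8.36, 8.11 and 8.52 against 8.29, 8.65, 8.05 and 8.07. Deletion replicate 2 was its highest array and the within-group SD of 0.25 was above that of 92.3% of all genes, beside a difference of -0.06 (SE 0.16). Klf4, a factor of pluripotency and monocytes, read 6.16, 6.26 and 6.04 against 6.32, 5.99, 6.35 and 6.15, a difference of 0.05 (SE 0.10). Klf5, of gut and other epithelia, and Klf7, of neurons, lay below the median of all genes and differed by 0.00381 (SE 0.08) and 0.10 (SE 0.12). A second, dimmer probeset of Klf7 differed by 0.27, with a limma unadjusted p of 0.0377 and overlapping groups.

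The CtBP-binding repressors differed widely in level. Klf3, which is itself a target of Klf1 in erythroid cells and binds the same sites, read 9.38, 9.50 and 9.42 in control and 9.45, 9.35, 9.63 and 9.47 in deletion cells. Its difference was 0.04 (SE 0.08). Klf8 and Klf12 lay at means of 4.76 and 4.28, above 29.7% and 20.6% of all genes, with differences of 0.10 (SE 0.10) and 0.00633 (SE 0.14). Control replicate 2 was the lowest of the 7 arrays for both.

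Genes of the Sin3-binding KLF group were mostly bright. Klf9, which is induced by glucocorticoid and thyroid hormones, read 10.09, 9.98 and 10.17 against 10.23, 10.20, 10.06 and 10.07, a difference of 0.05 (SE 0.08). Klf16 read 9.05, 9.29 and 9.25 against 9.22, 9.32, 9.25 and 9.32, and its difference of 0.08 (SE 0.08) came with a low control replicate 1. Klf10, induced by TGF-beta, read 8.91, 8.73 and 8.93 against 8.88, 8.89, 8.75 and 8.96, a difference of 0.01 (SE 0.08).

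Klf11, a relative of Klf10, had the smallest p of the KLF genes. It read 7.91, 8.01 and 7.88 against 7.66, 7.90, 7.80 and 7.77. Only deletion replicate 2 reached into the control range, and the difference was -0.15 (SE 0.08, 95% interval -0.33 to 0.02) with a limma unadjusted p of 0.0811. Klf13, known from lymphocytes and erythroid cells, read 7.87, 7.81 and 7.77 against 7.49, 7.84, 7.76 and 7.71, a difference of -0.12 (SE 0.09). Its deletion replicate 1 was low, as it was for Klf11. Klf17, of germ cells and early embryos, differed by 0.13 (SE 0.09).

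The SP genes encode widely expressed factors that bind GC boxes, and the 3 measured lay close together. Sp1 read 8.37, 8.41 and 8.41 in control and 8.47, 8.50, 8.57 and 8.39 in deletion cells. Only deletion replicate 4 fell in the control range, and the difference was 0.09 (SE 0.07) with a limma unadjusted p of 0.227. Sp3 read 8.33, 8.45 and 8.28 against 8.22, 8.39, 8.41 and 8.42, a difference of 0.00490 (SE 0.08). Sp4 read 8.29, 8.14 and 8.31 against 8.03, 8.45, 8.25 and 8.60, a difference of 0.09 (SE 0.13) within a range that spanned 0.56. The ranges of all 3 SP genes overlapped, so their order is not settled.

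Partners and signals of these factors were compared from gene lists, which were chosen with earlier results of these data known. Of 25 measured DNA-binding and cofactor partners, of 28 listed, 0 passed in limma and 2 had an unadjusted p under 0.05, both higher in deletion cells, beside 4.64% of all probesets for this list and those that follow. Lmo2, the adaptor of the TAL1 and GATA complex, had means of 8.59 ± 0.22 (SD, n = 3) in control cells and 8.89 ± 0.17 (SD, n = 4) in deletion cells. Gabpb1, the partner subunit of Gabpa, averaged 7.48 ± 0.03 (SD, n = 3) and 7.66 ± 0.11 (SD, n = 4). Gata2 was the brightest, at 12.46 and 12.42. Among 20 SRF and ELK target genes 0 passed and 2 had an unadjusted p under 0.05, Ier3 at -0.51 (SE 0.21) and Dusp1 at -0.40 (SE 0.15), both immediate early genes. The cytoskeletal gene Actb, brightest of that list, averaged 11.56 in control and 11.55 in deletion cells. Of 15 measured MAPK pathway genes, of 21 listed, 0 passed in limma, and 0 had an unadjusted p under 0.05. Their smallest limma unadjusted p, 0.0901, was that of Spred1, a RAS pathway inhibitor, with a difference of 0.14 (SE 0.07). Its deletion arrays all lay above the control arrays, and groups did not overlap for 5.15% of all probesets in either direction. The medians of the 3 lists were -0.00125, 0.01 and 0.03.

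The spread between arrays was set beside level. The median within-group SD was 0.126 both for the 45 members and for all genes. It was 0.0972 for the 32 members above the median level and 0.174 for the 13 below it, where all genes gave 0.0986 and 0.151. Among the control arrays, replicate 2 was the lowest for 24 of 45 members, and for 9 of the 13 dim ones. Over all genes it was the lowest for 38.1%, and for 45.1% of those below the median level. Above the median level, replicate 2 was the lowest control array for 15 and the highest for 11 of 32 members. For all genes there it was the lowest for 31% and the highest for 42.7%. Its median over all tested probesets was 5.60, where the other arrays lay at 5.67 to 5.74.

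**Figure D4:**
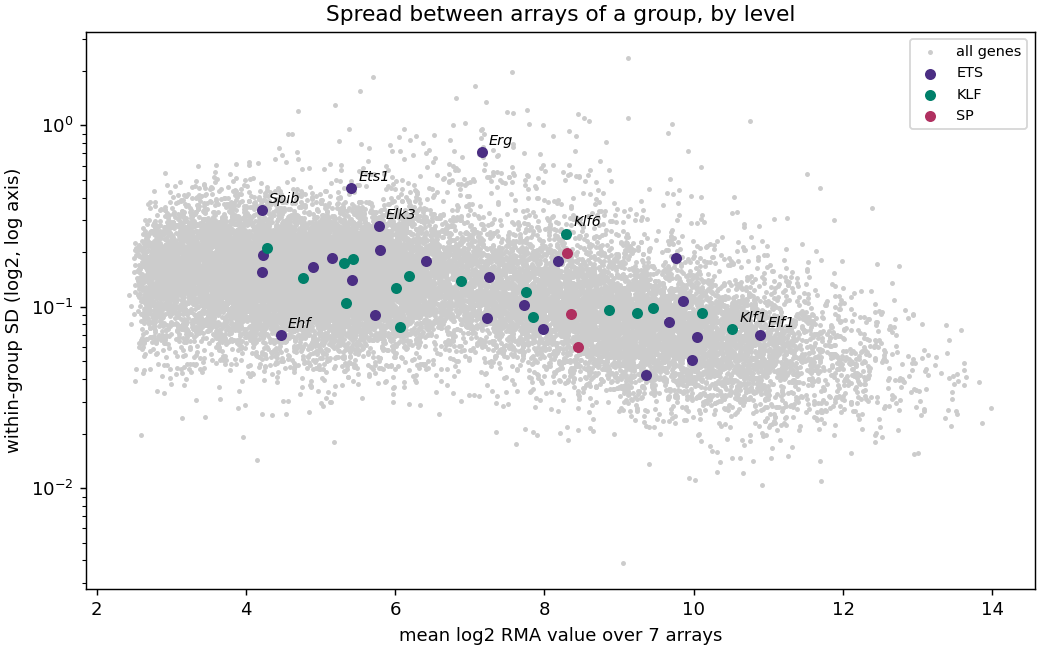
Within-group SD of each gene (log2, on a log axis) against its mean log2 RMA value over 7 arrays, with all 22180 genes in grey and the ETS, KLF and SP genes in colour. Erg at 0.71 and Ets1 at 0.45 lie at the upper edge of the grey cloud, and Klf1 and Elf1 lie at the right with SDs of 0.0754 and 0.0702.

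The CpG content of the promoter windows was set beside the levels. The 27 members with a window and a level above the median of all genes held a median of 29 CpG dinucleotides in 300 bases, from 3 to 43. The 9 dimmer ones held a median of 6, from 2 to 47, and all promoters a median of 7. These were 9 of the 13 members below the median level, since Fli1, Ets1, Klf5 and Ehf had no window. All promoters were not divided by level, so whether genes at large show the same contrast was not tested. Klf1, with 3 CpGs, lay at the low end among the bright genes, beside Elf1 with 43 and Elf2 with 42. Klf15 had the most, 47, at a level of 5.43. CpG counts and array values both depend on base composition, and whether probe composition plays a part was not tested.

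**Figure D5:**
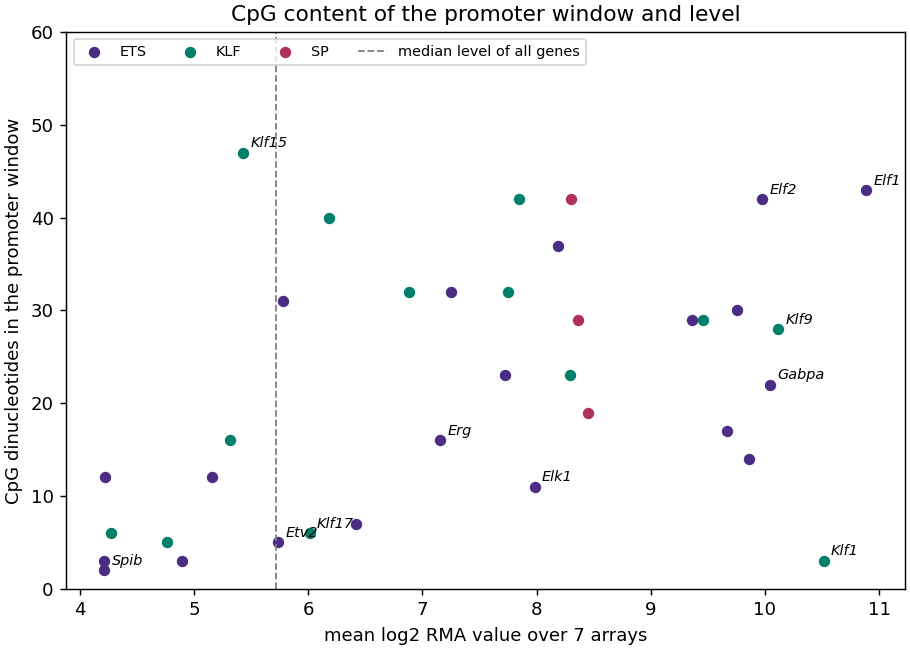
Number of CpG dinucleotides in the promoter window of 300 bases (vertical axis) against the mean log2 RMA value over 7 arrays (horizontal axis) for the 36 members with a window, coloured by family. Klf1 lies at the lower right with 3 CpGs, Elf1 and Elf2 at the upper right with 43 and 42, and Klf15 at the upper left with 47.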

How the data were processed

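Expression Console's RMA gave the log2 values as the authors deposited them, according to the submitters' processing notes. The program's version, library files and genome build were not given in the sources used here. That the scale is log2 follows from the range, 1.87 to 14.01 over 41345 probesets and 7 arrays. The number of arrays limits the precision. RMA gives no detection call.

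GEO's platform annotation gave exactly 1 symbol for 23521 probesets, which were tested, several for 1814, and did not list 16010. A gene with several probesets was represented by the one with the highest mean over 7 arrays. Titles gave each array's group and replicate number. Differences are deletion minus control, tested in R 4.3.3 with limma 3.58.1 (lmFit, eBayes, two-sided, both groups in 1 fit, no filter), with Benjamini-Hochberg adjustment over 23521 probesets, a threshold of 0.05 and 95% intervals.

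Members and gene lists were chosen with earlier results of these data known. The lists were erythroid markers, KLF1 targets, PU.1 targets and myeloid genes, FLI1 targets and megakaryocyte genes, SRF and ELK targets, partners, related zinc finger factors, MAPK genes, and mast cell, lymphoid, and stromal and endothelial markers. Array values were printed for members past a test, without overlap, brightest, most spread or known from blood, and Elf5 and Klf11 were added after their values were seen. In simulated data over 23521 probesets with 200 changed by 0.5 to 2, the fit recovered 58.6% of changes of 0.5 and 98.6% of changes of 1 (log2). The simulated noise was normal and independent. With that many changes the adjusted cutoff is looser than in the deposited data, where 2 probesets passed. Recovery in the deposited data was not measured. Title numbers did not pair the arrays, with correlations of deviations of 0.0248, 0.0611 and -0.0980. The description field numbers the deletion arrays 2 to 5 and not 1 to 4. By its numbers 2 pairs correlated at -0.171 and -0.0994, and the replicate block uses the titles. Promoter sequences are RefSeq's, assembly GRCm38.p6. A planned comparison of protein domains was not run.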

Additional observations from a re-analysis of the deposited data

Results flagged for a closer look

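In 2 of the 45 members 1 deletion array stood apart from the other 3 by more than Dixon's 95% limit. For Elf4, deletion replicate 2 read 9.97 where the others read 9.74 to 9.77. For Sp3, deletion replicate 1 read 8.22 where the others read 8.39 to 8.42. Chance flags about 1 in 20 groups, and the 3 control arrays were not tested.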

How the results depend on the processing

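With the adjusted p, 0 of the 45 members passed the limma threshold under each alternative listed here, and counting an unadjusted p under 0.05 in its place gave 1, Ehf. Of 575 member values under alternatives, 499 kept their sign and 76, from 23 members, changed it, none of them past the threshold in either fit. The 499 include values from settings that leave the difference itself unchanged. Members' adjusted p under the alternatives ran from 0.521 upward. Over all tested probesets, 2 passed, and 0 to 2 with each array left out in turn. That count was 0 once any control array or deletion replicate 1 or 4 was left out, with all probesets of the table, and with the replicate block over the 6 arrays whose number both groups hold. The block crossed no member's threshold. It leaves out deletion replicate 4, and its differences equal those without that array, so the same values are counted under both settings. With the block the differences with another sign were Klf1 0.021, Klf10 -0.017, Sp3 -0.015, Sp4 -0.0025, Klf6 0.0042, Elk1 0.00030, Erf 0.021, Spdef -0.043, Etv4 -0.017 and Klf12 -0.026. With each array centred on its median they were Klf10 -0.011, Sp3 -0.019, Spi1 -0.0021, Etv4 -0.0030, Klf5 -0.020 and Klf12 -0.017. With array weights they were Klf10 -0.011, Etv5 0.027, Spi1 -0.014, Klf2 -0.032, Spdef -0.018, Etv4 -0.066, Ets1 -0.040, Elf5 0.047 and Klf12 -0.057. Leaving out each array gave ranges across 0 for Elf1 (-0.046 to 0.015), Klf1 (-0.046 to 0.024), Sp3 (-0.032 to 0.053), Klf15 (-0.062 to 0.15), Klf5 (-0.038 to 0.062), Gabpa (-0.067 to 0.031), Klf10 (-0.050 to 0.052), Etv5 (-0.11 to 0.038), Spi1 (-0.032 to 0.070), Klf2 (-0.069 to 0.12), Spdef (-0.073 to 0.10) and Etv4 (-0.13 to 0.14). The same held for Ets1 (-0.25 to 0.37), Elf5 (-0.10 to 0.12), Klf8 (-0.024 to 0.16), Klf12 (-0.16 to 0.11), Spic (-0.15 to 0.040), Klf6 (-0.19 to 0.032), Klf4 (-0.013 to 0.12), Klf3 (-0.011 to 0.083), Sp4 (-0.0025 to 0.19), Elk1 (-0.070 to 0.00030) and Erf (-0.11 to 0.021). The cause was not tested. The filter on level, the intensity trend and the test of all probesets leave each difference as it is, so no sign could change.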

Other observations

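Zinc finger genes related to the KLF and SP factors, 18 of 18 listed, had 0 members past the limma threshold and 1 at an unadjusted p under 0.05, where 4.64% of all probesets lay. Their median difference was 0.01. Sp7, the osteoblast factor, had means of 5.17 ± 0.04 (SD, n = 3) in control cells and 4.98 ± 0.08 (SD, n = 4) in deletion cells, with groups that did not overlap and a limma adjusted p of 0.999. Gfi1, a repressor of myeloid and lymphoid progenitors, averaged 6.03 and 6.17, and Gfi1b, its erythroid relative and the brightest of the list, 12.46 and 12.44.

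For all lists here, 4.64% of all probesets had an unadjusted p under 0.05 and 10592 of 22180 genes lay below 0. Of the 19 erythroid markers 0 passed in limma and 2 had an unadjusted p under 0.05, both lower in deletion cells: Tfrc, the transferrin receptor gene, at -0.17 (SE 0.06), and the blood group gene Kel at -0.32 (SE 0.12). Their median was -0.06, with 15 of 19 below 0. Some of these markers are also in the KLF1 target list, so the results of these 2 lists are not independent. Of the 11 mast cell and basophil markers 0 passed and 2 had an unadjusted p under 0.05, with a list median of -0.06. The serotonin synthesis gene Tph1 differed by -2.03 (SE 0.29), with a limma adjusted p of 0.516. It read 9.35 to 10.39 in control and 7.25 to 8.37 in deletion cells. It was the 1 marker of this list whose groups did not overlap, beside 5.15% of all probesets. The granzyme gene Gzmb, at a mean of 4.29, differed by -0.39 (SE 0.12) with overlapping groups. Of the 11 lymphoid markers 0 passed and 1 had an unadjusted p under 0.05, Cd2 at -0.29 (SE 0.10), with a median of -0.02. Of the 12 stromal and endothelial markers 0 passed and 0 had an unadjusted p under 0.05. Their median was 0.06. The smallest limma unadjusted p of that list, 0.112, was that of Col1a2, a collagen gene, with a difference of 0.21 (SE 0.12).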
